A study of Mus musculus with 12 samples.

Results

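The mRNA levels of 10 genes of the YAP and TAZ pathway were followed in mouse C18-4 cells after knockdown or overexpression of lncRNA5251. The genes were chosen by name as known targets and regulators of YAP and TAZ, with earlier results of these data known. They are Ctgf (also written Ccn2), Cyr61 (also written Ccn1), Ankrd1, Amotl1, Amotl2, Ajuba, Lats2, Yap1, Wwtr1 and Tead1. All 10 were found among the 17576 genes of the expression table, and all 10 were among the 11435 genes that passed the filter on low values.

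YAP (encoded by Yap1) and TAZ (encoded by Wwtr1) are transcriptional coactivators that cannot bind DNA themselves and act through TEAD factors such as TEAD1. In the Hippo pathway the kinases LATS1 and LATS2 phosphorylate YAP and TAZ and keep them in the cytoplasm, while low cell density, spreading and tension on the actin cytoskeleton let them enter the nucleus. Ctgf, Cyr61 and Ankrd1 are the mRNAs most often used as a readout of their activity. Angiomotin family proteins and AJUBA link the pathway to cell junctions, and several regulators, LATS2 and AMOTL2 among them, are also known targets of YAP, which closes a feedback loop.

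C18-4 cells, an immortalized mouse spermatogonial line that stands in for spermatogonial stem cells, were grown in DMEM/F12 with fetal bovine serum. The strain in the labels is "IRC mouse". RNA-seq gave 12 libraries, 3 in each of 4 groups. The knockdown (KD) was made with shRNAs directed at lncRNA5251 in the lentiviral vector LV3. Its control, 3NC, had the same vector with a control shRNA. The overexpression group (OV) carried another lentiviral vector, LV5, with lncRNA5251 in it, and its control, 5NC, the LV5 vector alone. Both the labels and the main methods name lncRNA5251, while a heading of the supplementary methods on these cells names lncRNA8276, and the labels were followed. The cells were transfected with virus per the series' description, and with the reagent RNAi-mate per the methods, where the knockdown used a mixture of shRNAs. Every group thus received a vector, and cells without one were not analysed here. Nothing in the labels says whether the 3 libraries of a group came from separate cultures, so the p-values measure only the spread between these libraries, which may be technical. lncRNA5251 had no entry of its own in the expression table, so its level was not used to check the labels.

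Defining markers of the labelled cell type were mostly absent. Of 12 spermatogonial and germ cell markers, 10 were below 1 RPKM (reads scaled by transcript length and by library size) in all 12 libraries, with Ret, Kit, Pou5f1 and Nanos2 listed at 0 in each, and only Itga6 reached 1 RPKM in all. The Sertoli genes Wt1 and Gata4, the contractile genes Acta2, Tagln and Cnn1, and the mesenchymal genes Vim and Col1a1 were at 1 RPKM or more in every library, which was so for 2 of the 6 Sertoli markers listed in the table and for 0 of the 4 Leydig markers. The table holds no read numbers, so the depth of each library is unknown. Its relative depth, estimated from 21 genes of very low level, ranged from 0.934 to 1.05. These genes were kept only where their values above 0 lay close together, so a wide range could not appear. Similar depth is therefore not shown by this range. The summed RPKM ranged from 533099 to 580920, and OV replicate 3 stood farthest from the other libraries of its own group.

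TEAD factors bind the letters GGAATG. These letters were searched on both strands (CATTCC is the same site on the other strand) in the 250 bases before each start that RefSeq annotates, on GRCm38.p6. A window was matched for 8 of the 10 members, all but Ctgf and Tead1. The letters were in the windows of 6 of these 8 genes, in 7 of their 10 windows (Lats2 and Wwtr1 have 2 starts each), and in 12.6% of all 32851 windows of the same length. The 2 windows of Wwtr1 overlap and hold the same site, which is counted in both. The AP-1 letters TGACTCA, in 4.46% of all windows, and the CArG box bound by SRF, in 1.47%, were in none of the members' windows. Both were searched on both strands, and neither contains GGAATG, though neighbouring sites could share end letters. A match describes the letters only and was not tied to binding in these cells. The windows of Cyr61 and Ankrd1, which moved together in the results, and of Amotl2 and Ajuba, which moved apart from them, are shown 5′ to 3′ with GGAATG or CATTCC in capitals. They lie at chr3:145649986-145650235 (minus strand), chr19:36119845-36120094 (minus strand), chr9:102717554-102717803 (plus strand) and chr14:54577662-54577911 (minus strand).
Cyr61: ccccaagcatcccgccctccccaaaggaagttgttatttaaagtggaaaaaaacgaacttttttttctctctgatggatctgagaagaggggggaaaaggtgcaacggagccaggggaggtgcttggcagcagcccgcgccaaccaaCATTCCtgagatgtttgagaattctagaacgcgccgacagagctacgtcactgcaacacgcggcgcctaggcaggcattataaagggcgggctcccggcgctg
Ankrd1: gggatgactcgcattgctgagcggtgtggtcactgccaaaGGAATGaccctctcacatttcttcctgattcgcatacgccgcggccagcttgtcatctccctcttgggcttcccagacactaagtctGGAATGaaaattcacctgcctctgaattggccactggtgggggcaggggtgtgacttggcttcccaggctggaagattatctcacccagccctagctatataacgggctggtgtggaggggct
Amotl2: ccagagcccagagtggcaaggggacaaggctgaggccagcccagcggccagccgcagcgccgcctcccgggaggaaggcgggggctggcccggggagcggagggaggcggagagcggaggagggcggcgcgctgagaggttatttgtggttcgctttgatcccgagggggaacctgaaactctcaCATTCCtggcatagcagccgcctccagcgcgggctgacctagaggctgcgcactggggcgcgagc
Ajuba: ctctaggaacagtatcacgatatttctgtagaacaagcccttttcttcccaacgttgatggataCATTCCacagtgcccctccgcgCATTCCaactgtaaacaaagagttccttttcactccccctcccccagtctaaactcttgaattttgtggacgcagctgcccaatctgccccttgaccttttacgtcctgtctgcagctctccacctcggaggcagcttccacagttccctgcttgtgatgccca
The capitals began 103 bases before the start in Cyr61, 210 and 123 bases before it in Ankrd1, 65 bases before it in Amotl2 and 186 and 164 bases before it in Ajuba. The window of Yap1 held the letters 141 bases before the start, and the shared site of Wwtr1 lay 136 and 170 bases before its starts. The windows of Amotl1 and Lats2 did not hold them. The windows of Ankrd1, Amotl1, Amotl2 and Lats2 lie inside the spans that GENCODE gives these genes, and the 5′ ends of those spans were not searched.

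RPKM divides by length and can be set side by side between genes. By group means, Cyr61 (115 to 171 RPKM) and Ankrd1 (96.8 to 157 RPKM) were above the other members in every group. Amotl2 ranged from 44.6 to 101 RPKM and Ctgf from 32.8 to 65.9 RPKM, with Ctgf above Amotl2 in 3NC and below Wwtr1, Yap1 and Lats2 in KD. Wwtr1 (37.8 to 42.2 RPKM) was slightly above Yap1 (32.3 to 37.4 RPKM) in each group mean. Lats2 ranged from 22.0 to 37.2 RPKM, Ajuba from 20.5 to 36.0 RPKM, Tead1 from 23.1 to 31.0 RPKM and Amotl1 from 11.8 to 18.6 RPKM. The spread between the highest and lowest group mean was 2.26-fold for Amotl2 and 2.01-fold for Ctgf, and it was 1.16-fold for Yap1 and 1.12-fold for Wwtr1. Thus the group means of the coactivators themselves lay closest together among the 10 genes.

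**Figure D1:**
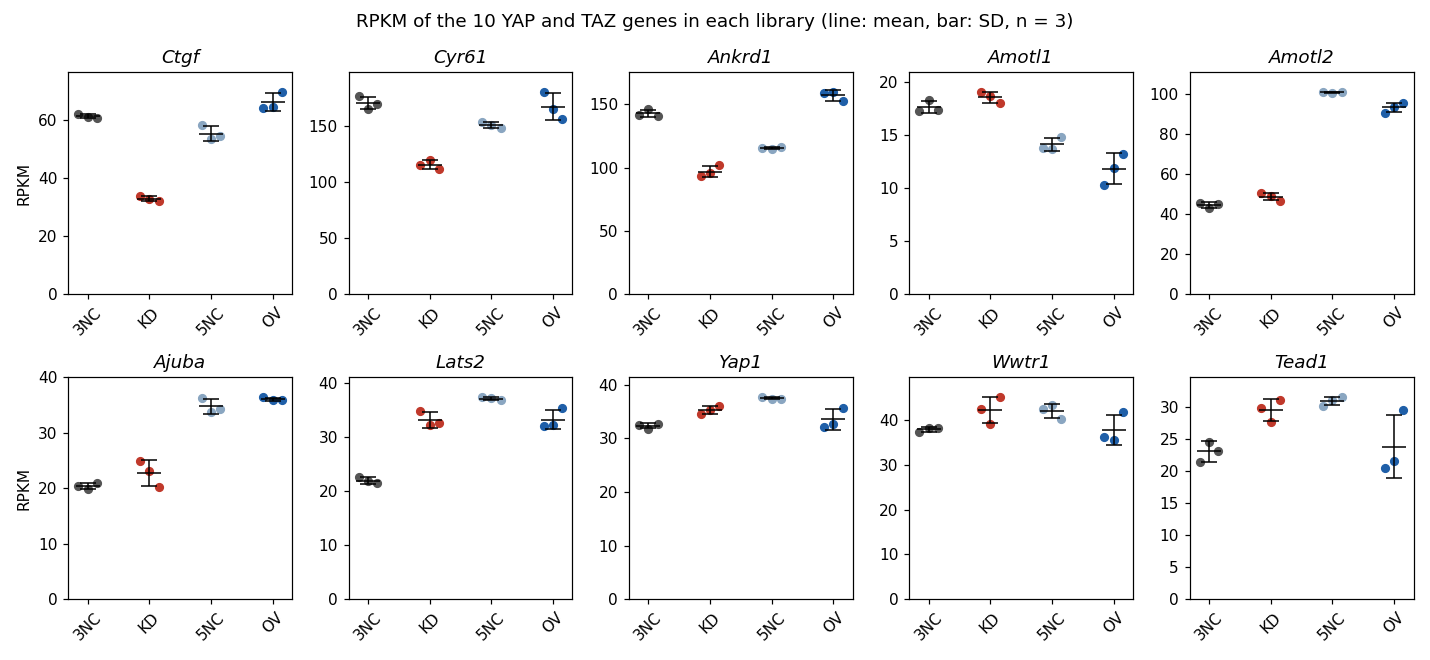
RPKM (y axis, from 0) of each of the 10 genes in each library of the groups 3NC, KD, 5NC and OV (x axis), with points for libraries, a line for the mean and bars for the SD of 3 libraries. Ctgf, Cyr61 and Ankrd1 were lowest in KD, Amotl2 and Ajuba were high in both LV5 groups, and Yap1 and Wwtr1 differed little.

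The 3 canonical targets were lower after knockdown of lncRNA5251. The comparison of KD with 3NC asks what the shRNAs changed within the LV3 vector. Ctgf, a secreted matricellular protein, was 62.1, 60.9 and 60.6 RPKM in the 3NC libraries and 33.7, 32.8 and 31.9 RPKM in the KD libraries. All 3 knockdown libraries were far below all 3 controls. The fold change was -0.88 ± 0.05 (SE) on the log2(RPKM + 1) scale, a scale that understates changes of low genes, and the ratio of the group means was 0.536 (adjusted p = 1.52e-09, limma with Benjamini-Hochberg adjustment over 11435 genes). Cyr61, its close relative in the CCN family, was 176, 165 and 169.9 RPKM in 3NC and 115, 119.8 and 111 RPKM in KD. Ankrd1, an ankyrin repeat protein known from the nucleus and sarcomere of muscle cells, was 142, 146 and 140.4 RPKM in 3NC and 93.0, 95.8 and 102 RPKM in KD. Neither gene's groups overlapped. The fold change of Cyr61 was -0.56 ± 0.05 (ratio 0.677, limma adjusted p = 3.76e-07), and that of Ankrd1 was -0.56 ± 0.04 (ratio 0.679, limma adjusted p = 5.37e-08).

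Of the regulators, Lats2 rose most. This kinase, which restrains YAP and TAZ, was 22.7, 21.8 and 21.5 RPKM in 3NC and 34.9, 32.2 and 32.7 RPKM in KD, again without overlap. Its fold change was 0.57 ± 0.05 (ratio 1.51, limma adjusted p = 2.34e-07). Some of its exon bases are shared with Gm49361, a gene annotated on the same strand, so reads of the 2 cannot be fully told apart. Tead1, the DNA binding partner, was 21.5, 24.7 and 23.2 RPKM in 3NC and 29.9, 27.8 and 31.2 RPKM in KD, a fold change of 0.34 ± 0.10 (limma adjusted p = 0.00827) with no overlap. The other calls were small. Amotl2, an angiomotin family protein that binds YAP at junctions, was 45.7, 43.0 and 45.1 RPKM in 3NC and 50.5, 49.0 and 46.8 RPKM in KD, and Yap1 was 32.5, 31.8 and 32.7 RPKM in 3NC and 34.6, 35.3 and 36.0 RPKM in KD. In both genes the KD libraries were above the controls by a narrow margin. Amotl2 rose by 0.13 ± 0.04 (limma adjusted p = 0.0231), and Yap1 itself rose by 0.12 ± 0.05 (limma adjusted p = 0.0361). The call of Amotl2 was lost without 3NC replicate 2, KD replicate 1 or KD replicate 2, and that of Yap1 was lost without any of the 3 libraries of 3NC, or without KD replicate 2 or 3. With median ratio scaling both were at 0.08, and after correction for transcript length at 0.09, and neither passed the test. Wwtr1 (0.15, 95% interval 0.01 to 0.28, limma adjusted p = 0.0566), the LIM protein gene Ajuba (0.14, 0.01 to 0.27, limma adjusted p = 0.0638) and Amotl1 (0.07, -0.08 to 0.22, limma adjusted p = 0.435) did not pass the test. Ajuba was 24.8, 23.1 and 20.3 RPKM in KD, the last of them within the range of 3NC. Without KD replicate 3, Ajuba passed with 0.22, and Wwtr1 passed with 0.20 without KD replicate 2 and with 0.15 without OV replicate 3. Wwtr1 also passed in a fit to the 6 libraries compared (0.15, limma adjusted p = 0.0392).

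In this comparison 4 members were higher and 3 were lower at an adjusted p of at most 0.05, against 31.9% and 23.5% of all genes tested. The libraries of 8 members did not overlap (5 higher, 3 lower), which was so for 62.8% of all genes tested (35.7% higher, 27.1% lower). Under a stricter threshold, an adjusted p no larger than 0.001 with a log2 fold change of 1 or more in size, limma called 0 members, against 0.498% of all genes higher and 1.08% lower. At an unadjusted p under 0.05, 6 were higher and 3 lower, against 34.7% and 25.7% of all genes. With this many genes called, the counts of members were close to the share of all genes, whose median fold change was 0.04. In bulk RNA, fewer cells of a kind and less RNA per cell cannot be told apart. The summed level of the 4 peritubular myoid markers, 3 of which were at 1 RPKM or more throughout, lay between 65.8 and 71.0 RPKM in 3NC and between 87.5 and 94.2 RPKM in KD. It lay between 77.4 and 81.3 RPKM in 5NC and between 61.2 and 73.0 RPKM in OV. The sum was highest in KD, and most of it was Tagln, with group means of 50.1 to 65.3 RPKM. Tagln and Cnn1 were highest in KD, while Acta2 was highest in 5NC (21.2 RPKM, against 18.6 RPKM in KD). The 5 mesenchymal markers, with 2 at 1 RPKM or more throughout, summed to 771 to 815 RPKM in 3NC and 847 to 943 RPKM in KD, and to 906 to 950 RPKM in 5NC and 992 to 1072 RPKM in OV. Their part in the result was not tested.

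The 2 control groups, which differ in the vector and its insert, were not alike for these genes. This comparison was not the study's question, but it sets the base from which each arm is read, and it shares the 3NC libraries with the knockdown comparison. Amotl2 was 101, 100.6 and 101 RPKM in 5NC. The 5NC libraries lay close together and far above all of 3NC, a fold change of 1.16 ± 0.04 (ratio 2.26, limma adjusted p = 1.63e-11), above the largest absolute fold change of a member in KD against 3NC (0.88). Ajuba, whose protein binds LATS kinases at junctions, was 20.4, 19.9 and 21.0 RPKM in 3NC and 36.3, 33.7 and 34.2 RPKM in 5NC. Its fold change was 0.74 ± 0.06 (ratio 1.70, limma adjusted p = 1.12e-07). Lats2, at 37.4, 37.3 and 36.9 RPKM in 5NC, was higher than in 3NC by 0.73 ± 0.05 (ratio 1.69, limma adjusted p = 1.22e-08). Tead1 (0.41 ± 0.10, limma adjusted p = 0.00254) and Yap1 (0.21 ± 0.05, limma adjusted p = 0.00165) were higher in 5NC as well, while Wwtr1 was not called (0.14, limma adjusted p = 0.0633). In a fit to the 6 libraries compared Wwtr1 passed at the same 0.14 (limma adjusted p = 0.00517), and it also passed without KD replicate 2, KD replicate 3 or OV replicate 3, which took no part in this contrast.

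The targets went the other way. Ankrd1, at 115, 114.8 and 116 RPKM in 5NC, was lower than in 3NC by a fold change of -0.31 ± 0.04 (limma adjusted p = 2.12e-05). Cyr61, at 153, 151 and 148.5 RPKM, and Ctgf, at 58.1, 53.3 and 54.3 RPKM, were lower by -0.18 ± 0.05 (limma adjusted p = 0.00876) and -0.15 ± 0.05 (limma adjusted p = 0.017), the second of which was lost without 3NC replicate 1, 5NC replicate 2 or 5NC replicate 3. Amotl1, an angiomotin family member like Amotl2, was 17.3, 18.3 and 17.4 RPKM in 3NC and 13.8, 13.7 and 14.9 RPKM in 5NC, a fold change of -0.30 ± 0.07 (limma adjusted p = 0.00205). The 2 angiomotin-like genes therefore differed in opposite directions between the vectors. In all, 5 members were higher and 4 lower in 5NC, against 31.0% and 25.6% of all genes, and all 10 had libraries that did not overlap (6 higher, 4 lower), against 69.3% (37.5% higher, 31.9% lower). Amotl2 passed the stricter threshold, which 1.56% of all genes passed upwards and 1.05% downwards. The vector, its insert and any other difference between the 2 sets of cells cannot be told apart here.

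Because the controls differ, the knockdown was also set beside 5NC, with the same KD libraries in both comparisons. Ctgf (-0.73 ± 0.05, limma adjusted p = 5.28e-09), Cyr61 (-0.38 ± 0.05, limma adjusted p = 1.08e-05) and Ankrd1 (-0.25 ± 0.04, limma adjusted p = 1.01e-04) were lower in KD against this control too, and no library overlapped. The regulators depended on the control used. Lats2, higher than 3NC, was lower than 5NC by a fold change of -0.16 ± 0.05 (limma adjusted p = 0.0127), a call lost with quantile normalization (-0.10). Amotl2 was lower than 5NC by -1.03 ± 0.04 (ratio 0.483, limma adjusted p = 5.17e-11) and Ajuba by -0.59 ± 0.06 (limma adjusted p = 7.89e-07), and Amotl1 was higher by 0.37 ± 0.07 (limma adjusted p = 3.12e-04). Yap1 (-0.08, 95% interval -0.18 to 0.02), Wwtr1 (0.01, -0.13 to 0.14) and Tead1 (-0.07, -0.28 to 0.14) did not pass the test. Altogether 1 member was higher and 6 were lower, against 34.0% and 31.4% of all genes tested, 8 did not overlap (1 higher, 7 lower), against 69.4% (36.0% and 33.4%), and Amotl2 passed the stricter threshold, as did 1.26% of all genes upwards and 2.29% downwards. Hence the 3 targets were called lower against either control, while Lats2, Tead1, Amotl2 and Yap1 were called higher against 3NC and not against 5NC.

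**Figure D2:**
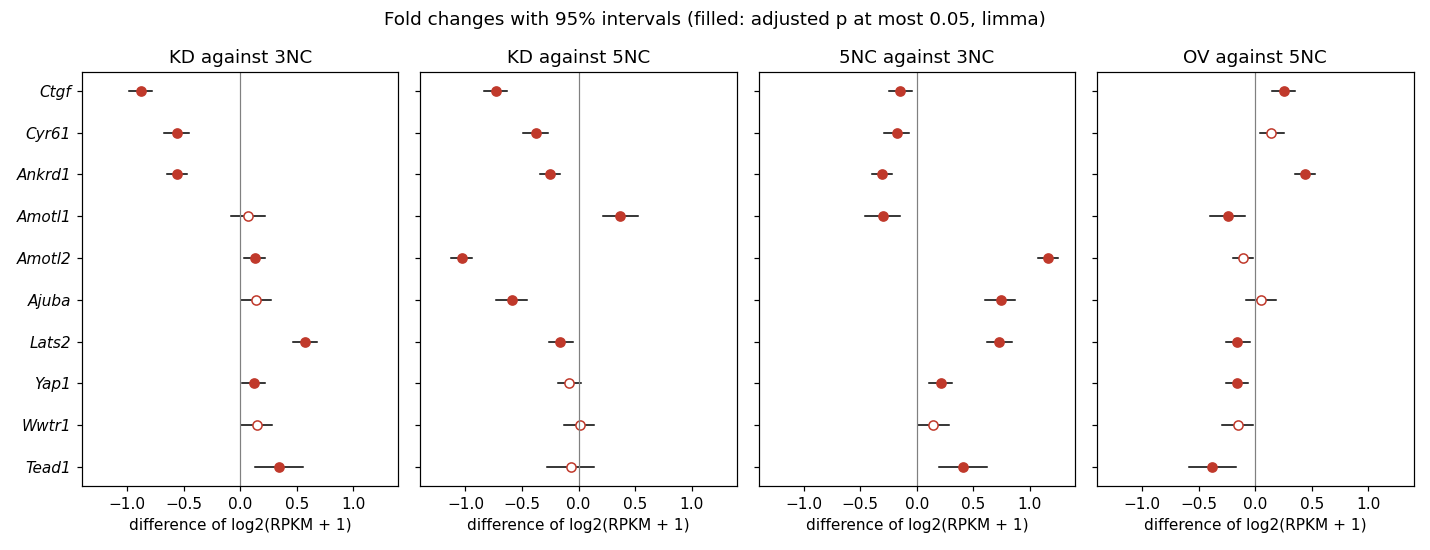
Difference of log2(RPKM + 1) (x axis) for each member (y axis) in 4 comparisons, with 95% intervals from limma and filled points for an adjusted p of at most 0.05. Ctgf, Cyr61 and Ankrd1 lie left of 0 in both panels of KD, and Amotl2 moves from 0.13 against 3NC to -1.03 against 5NC.

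Overexpression of lncRNA5251 was followed by higher Ankrd1 and Ctgf. The comparison of OV with 5NC asks what the insert changed within the LV5 vector. Ankrd1 was 159, 159.6 and 152 RPKM in OV, all above the 5NC libraries at 115, 114.8 and 116 RPKM, with a fold change of 0.44 ± 0.04 (ratio 1.36, limma adjusted p = 2.79e-05). Ctgf was 63.9, 64.3 and 69.5 RPKM in OV and 58.1, 53.3 and 54.3 RPKM in 5NC, a fold change of 0.25 ± 0.05 (ratio 1.19, limma adjusted p = 0.00379) with no overlap. Both calls held without any single library. Cyr61 was 180.2, 165 and 156 RPKM in OV, all above 5NC at 153, 151 and 148.5 RPKM, but its fold change of 0.14 ± 0.05 did not pass the test (limma adjusted p = 0.0557). Without OV replicate 3 it passed, at 0.19 (limma adjusted p = 0.00668), and without KD replicate 3, which changes only the shared spread, it passed at 0.14. With median ratio scaling it passed at 0.18 (limma adjusted p = 0.024).

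Several regulators were called lower, by small amounts. Tead1 was 20.5, 21.6 and 29.5 RPKM in OV and 30.3, 31.2 and 31.6 RPKM in 5NC, a fold change of -0.38 ± 0.10 (limma adjusted p = 0.0161). Its value in OV replicate 3 was close to the controls, and the other 2 were well below. Amotl1 was 10.3, 11.9 and 13.2 RPKM in OV, a fold change of -0.24 ± 0.07 (limma adjusted p = 0.0268). Lats2, at 32.1, 32.3 and 35.4 RPKM, and Yap1, at 32.1, 32.7 and 35.7 RPKM, each had a fold change of -0.16 ± 0.05 (limma adjusted p = 0.0376 and 0.0287). In each of these, OV replicate 3 was the library nearest to 5NC. Amotl2 (-0.11, 95% interval -0.20 to -0.02, limma adjusted p = 0.0784), Wwtr1 (-0.15, -0.29 to -0.02, limma adjusted p = 0.0981) and Ajuba (0.05, -0.08 to 0.18, limma adjusted p = 0.572) did not pass. So 2 members were higher and 4 lower, against 8.07% and 13.9% of all genes tested. The libraries of 8 members did not overlap (3 higher, 5 lower), against 36.7% (14.6% and 22.0%), and 0 members and 0.00% of all genes passed the stricter threshold in either direction. At an unadjusted p under 0.05, limma gave 3 higher and 6 lower, against 14.0% and 23.1% of all genes.

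The lower calls moved with transcript length. Tead1 and Amotl1 have the longest mRNAs of the 10 genes, with longest coding transcripts of 9964 and 8957 bases, and Cyr61, Ankrd1 and Ctgf have the shortest, with 2019, 2020 and 2490 bases. Over all genes, OV replicate 1 was above the mean of 5NC by a median of 0.11 (log2) for 4040 genes with transcripts under 2500 bases and below it, at -0.23, for 2371 genes over 5000 bases. Replicate 2 showed the same, with 0.07 and -0.17, and replicate 3 did not, with -0.02 and -0.04. In KD against 3NC these medians were 0.06 and 0.04, and in 5NC against 3NC they were 0.03 and 0.01. After each library was corrected for this trend, an alternative added after the data were seen, the fold changes were -0.17 for Tead1, -0.05 for Amotl1, -0.05 for Lats2 and -0.10 for Yap1, and limma called 0 members lower, against 8.12% of all genes, with 2 at an unadjusted p under 0.05 (15.6% of all genes). The corrected fold changes of Ankrd1 (0.42, limma adjusted p = 1.63e-05), Ctgf (0.24, limma adjusted p = 0.00394) and Cyr61 (0.12, limma adjusted p = 0.0431) made 3 members higher, against 10.9% of all genes, and 3 were higher at an unadjusted p under 0.05 too (18.2% of all genes). Leaving out single libraries, without this correction, changed the lower calls as well. They fell to 0 without OV replicate 1 or 2, with Tead1 at -0.29 and -0.32, and over all genes the lower calls fell from 1595 to 623 and 583. They also fell to 0 without 5NC replicate 2 or 3, where the fold changes of Tead1 (-0.38 and -0.37) and of Lats2 and Yap1 (-0.16 in both) were as large as with all libraries, and the limma adjusted p of Tead1 was 0.0536 and 0.0534. The lower calls over all genes were then 634 and 811. Without 5NC replicate 1 there was 1 lower call among the members and 1011 over all genes. Without OV replicate 3 they rose to 6, with Amotl2 (-0.13) and Wwtr1 (-0.22) added, and without KD replicate 3 to 5, while those over all genes rose to 2509 and 1891. The count of members thus moved with the count over all genes. Lats2 also lost its call without 3NC replicate 2 or 3. With quantile normalization Amotl2 passed at -0.17, while Amotl1 (-0.19, limma adjusted p = 0.0615) and Lats2 (-0.15, limma adjusted p = 0.0551) lost their calls. With median ratio scaling Lats2 and Yap1 lost theirs, both at -0.13, and in a fit to the 6 libraries compared Amotl1 (-0.24), Lats2 (-0.16) and Yap1 (-0.16) did. Amotl1 also lost its call with no filter on low values (-0.24, limma adjusted p = 0.0542) and Lats2 with no intensity trend (-0.16, limma adjusted p = 0.0513).

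**Figure D3:**
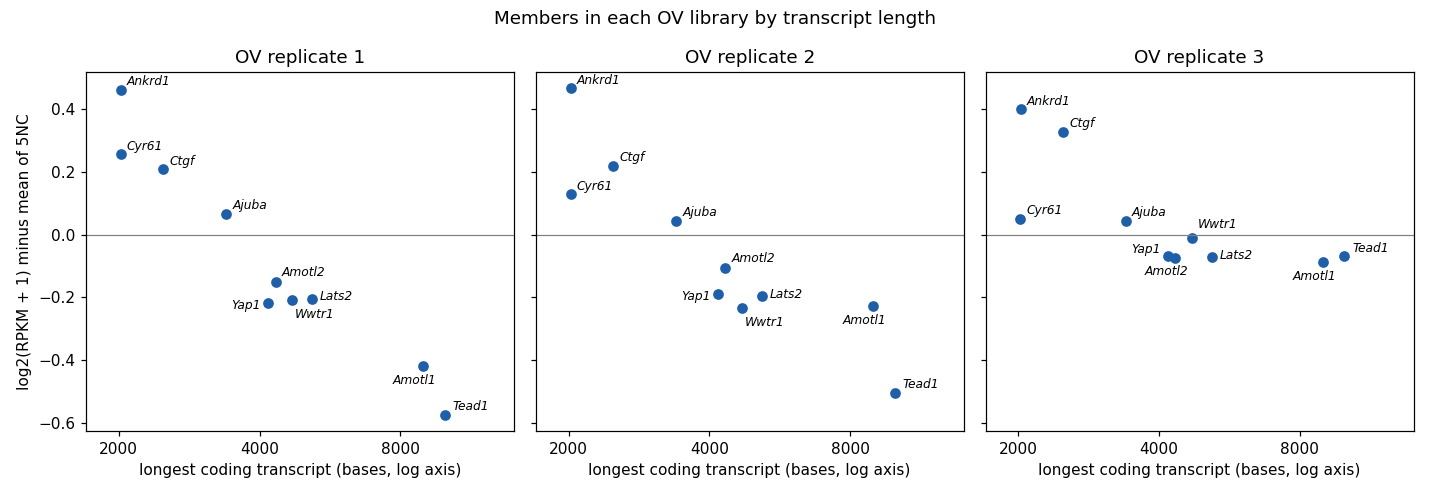
log2(RPKM + 1) of each member in each OV library minus the mean of the 3 5NC libraries (y axis) against the length of its longest coding transcript in bases (x axis, log scale). Tead1 stood at -0.57 and -0.50 in replicates 1 and 2 and at -0.07 in replicate 3, while Ankrd1 stood at 0.46, 0.47 and 0.40.

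The effects of knockdown and overexpression differed for most members. The difference of the 2 fold changes, (KD against 3NC) minus (OV against 5NC), was tested in the same fit, and its 2 arms share no library. It was -1.13 ± 0.07 for Ctgf (limma adjusted p = 9.26e-09), between -1.12 and -0.87 (95% interval) for Ankrd1 (limma adjusted p = 9.14e-09) and -0.70 ± 0.07 for Cyr61 (limma adjusted p = 2.17e-06). All of these targets were thus lower with knockdown than with overexpression relative to their own controls. It was 0.73 ± 0.07 for Lats2 (limma adjusted p = 1.23e-06) and 0.73 ± 0.14 for Tead1 (limma adjusted p = 5.78e-04). Amotl1, Wwtr1, Yap1 and Amotl2 had differences from 0.24 to 0.31, with limma adjusted p-values from 0.00258 to 0.0179, and Ajuba had 0.09 (limma adjusted p = 0.404), which passed without KD replicate 3 (0.17). The call of Amotl1 was lost with median ratio scaling, at 0.24. In all, 6 members were called higher and 3 lower, against 31.2% and 20.7% of all genes, and Ctgf alone passed the stricter threshold, as did 1.46% of all genes upwards and 1.41% downwards. After correction for transcript length 3 were called higher (Lats2, Yap1 and Tead1), against 26.4% of all genes, and the same 3 targets lower, against 26.7%.

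Ordered by group mean, Ctgf and Ankrd1 had the same order, with KD lowest, then 5NC, 3NC and OV, and no neighbours in that order overlapped. Cyr61 began with KD and 5NC too, but OV and 3NC overlapped. Amotl2 rose from 3NC through KD and OV to 5NC without overlap of neighbours. Ajuba had the same break, with 3NC and KD overlapping below and 5NC and OV overlapping above. In Lats2 3NC was apart from the other groups, KD and OV overlapped, and 5NC was above both. All neighbours overlapped in Tead1, and in Yap1 only 5NC was apart from the group next to it. In Wwtr1 the neighbours 3NC and 5NC did not overlap, while OV overlapped 3NC and 5NC overlapped KD. In Amotl1 OV was lowest, then 5NC, and 3NC and KD overlapped above both.

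Other genes of the pathway moved in both directions. Of 17 other genes used as YAP and TAZ target signatures, 15 were tested, and 3 were higher and 5 lower in KD against 3NC (31.9% and 23.5% of all genes), with a median of -0.06 (all genes 0.04). Without Rbms3 and Fjx1, whose group means were below 1 RPKM in both groups, 3 were higher and 3 lower. F3, the tissue factor that starts blood clotting, fell from 14.5 ± 0.956 RPKM in 3NC to 7.75 ± 0.453 RPKM in KD (SD, n = 3, fold change -0.82, limma adjusted p = 6.88e-08). Axl, a receptor tyrosine kinase, fell by 0.32 on the log2 scale, and Fjx1 by 0.46 at group means of 0.827 RPKM or less, while Gadd45a, a growth arrest gene, rose by 0.42. Between the controls most were higher, where Ctgf, Cyr61 and Ankrd1 were lower. In 5NC against 3NC 10 were higher and 3 lower (31.0% and 25.6% of all genes), with a median of 0.39 (all genes 0.02). Ccdc80, a secreted matrix protein, rose from 19.8 to 50.6 RPKM (1.31, limma adjusted p = 3.05e-11). Tgfb2, a growth factor, rose from 5.67 RPKM to between 11.5 and 12.2 RPKM (0.96, limma adjusted p = 6.41e-08), and the kinase Nuak2 was higher by 0.77. Of the 15 genes, Rbms3 and Fjx1 passed the filter on low values through the LV5 groups, where all 6 libraries reached 1 RPKM, while 0 of the 6 LV3 libraries did so for Rbms3 and 1 for Fjx1. Their differences between the LV5 and LV3 groups were therefore favoured by the filter, and the other 13 genes had 8 higher and 3 lower. The median of 0.39 includes Rbms3 and Fjx1, and the middle value of the other 13 genes was that of Asap1, 0.22. Against 5NC, KD had 2 higher and 10 lower (34.0% and 31.4% of all genes) with a median of -0.37 (all genes 0.02), with F3 (-1.51), Ccdc80 (-1.37) and Tgfb2 (-0.97) among the lower. The 13 genes without Rbms3 and Fjx1 had 2 higher and 8 lower, and their middle value was that of Gadd45a, -0.22. In OV against 5NC limma called 0 higher, also at an unadjusted p under 0.05, and 2 lower, Foxf2 (-0.29) and Ccdc80 (-0.19), where 8.07% and 13.9% of all genes were called. After correction for length limma called 2 higher (13.3%) and 1 lower (6.67%), close to the 10.9% and 8.12% of all genes. At an unadjusted p under 0.05 limma gave 4 and 2, against 18.2% and 15.6% of all genes. The median was then 0.02 (all genes 0.00).

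Of the 12 core kinases and their scaffolds, all tested, 1 was higher and 7 lower in KD against 3NC (31.9% and 23.5% of all genes), with a median of -0.25. In KD against 5NC 3 were higher and 4 lower (34.0% and 31.4%), with a median of -0.01. Among the genes lower in KD than in 3NC were Mob1b (-0.40 ± 0.15) and Mob1a (-0.28 ± 0.08), coactivators of LATS kinases, Map4k4 (-0.35 ± 0.05), a kinase upstream of LATS, and Sav1 (-0.33 ± 0.06), the scaffold of the MST kinases. Lats1 was 10.7 ± 0.191 RPKM in 3NC and 8.82 ± 1.22 RPKM in KD (SD, n = 3), below its paralog Lats2 in each group mean. In 5NC against 3NC 1 was higher and 3 lower (median -0.12), against 31.0% and 25.6% of all genes. After correction for length these were 1 and 7, against 29.4% and 31.2%. In OV against 5NC limma called 0 higher, also at an unadjusted p under 0.05, and 5 lower (median -0.20, all genes -0.03), Mob1a, Stk4, Stk3 and Stk38 among them, against 8.07% and 13.9% of all genes. After correction for length these were 1 and 3, against 10.9% and 8.12%.

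Of 23 upstream regulators, 16 were tested. In KD against 3NC 3 were higher and 3 lower (31.9% and 23.5% of all genes), with a median of 0.03, and after correction for length 3 were higher and 5 lower (30.0% and 28.4%). Crb2, an apical polarity protein, was 6.16 ± 0.446 RPKM in 3NC, 11.8 RPKM (10.7 to 12.7) in KD, 14.7 ± 0.590 RPKM in 5NC and 17.4 ± 0.758 RPKM in OV (SD, n = 3). Its lowest group was 3NC, as for Amotl2, Ajuba, Lats2, Yap1 and Tead1. The protocadherin Fat1 (0.44) and the KIBRA relative Wwc2 (0.27) were higher in KD, and Rassf1 (-0.23) was lower. In 5NC against 3NC 4 were higher and 2 lower (31.0% and 25.6% of all genes), and after correction for length 4 and 4 (29.4% and 31.2%), with uncorrected fold changes of Crb2 at 1.13, Pard3 at 0.50, Fat1 at 0.46 and Frmd6 at -0.59. In OV against 5NC 2 were higher, Rassf1 (0.30) and Crb2 (0.24), and 3 lower, among them Fat1 (-0.37) and Pard3 (-0.24), against 8.07% and 13.9% of all genes. After correction for length 3 were higher and 0 lower (2 at an unadjusted p under 0.05 by limma), against 10.9% and 8.12%. In KD against 5NC 2 were higher and 4 lower, against 34.0% and 31.4%.

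Of the 7 other TEAD and VGLL genes 5 were tested, and 2 were higher and 1 lower in KD against 3NC (31.9% and 23.5% of all genes), with a median of 0.14. Tead2 was the most abundant TEAD mRNA, with group means of 83.4 to 93.0 RPKM, above Tead1. Tead4 was higher in KD than in 3NC by 0.57 ± 0.07 (3.66 against 2.14 RPKM, limma adjusted p = 5.91e-06) and Tead3 by 0.27, and the cofactor Vgll3 was lower by -0.23. In 5NC against 3NC 4 were higher and 0 lower by limma at either an adjusted or an unadjusted p of 0.05, with Vgll4 at 0.79, Vgll3 at 0.59, Tead4 at 0.40 and Tead3 at 0.30, against 31.0% and 25.6% of all genes. In OV against 5NC limma called 0, with 1 lower at an unadjusted p under 0.05, where 8.07% of all genes were called higher and 13.9% lower. In KD against 5NC 2 were higher, Tead4 (0.16) and Tead2 (0.15), and 2 lower, Vgll3 (-0.82) and Vgll4 (-0.81), against 34.0% and 31.4% of all genes.

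Of the 4 other CCN genes, relatives of Ctgf and Cyr61, Wisp1 and Nov were tested. Both were lower in KD than in 3NC (23.5% of all genes were called lower), as Ctgf and Cyr61 were, by -0.56 ± 0.06 for Wisp1 (limma adjusted p = 1.63e-06) and -0.20 ± 0.07 for Nov (limma adjusted p = 0.0338). Both were far higher in 5NC than in 3NC (31.0% of all genes were called higher), where Ctgf and Cyr61 were lower. Wisp1 was 18.5 ± 0.557 RPKM in 3NC, 12.2 ± 0.361 RPKM in KD, 55.3 ± 1.28 RPKM in 5NC and 52.9 ± 5.02 RPKM in OV (SD, n = 3). Its fold change in 5NC against 3NC was 1.53 ± 0.06 (limma adjusted p = 2.48e-11), and that of Nov was 1.08 ± 0.07 (limma adjusted p = 1.14e-08). In KD against 5NC they were -2.09 and -1.28, where 31.4% of all genes were called lower. In OV against 5NC limma called 0 of the 2, and 0 passed at an unadjusted p under 0.05, where 8.07% of all genes were called higher and 13.9% lower.

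**Figure D4:**
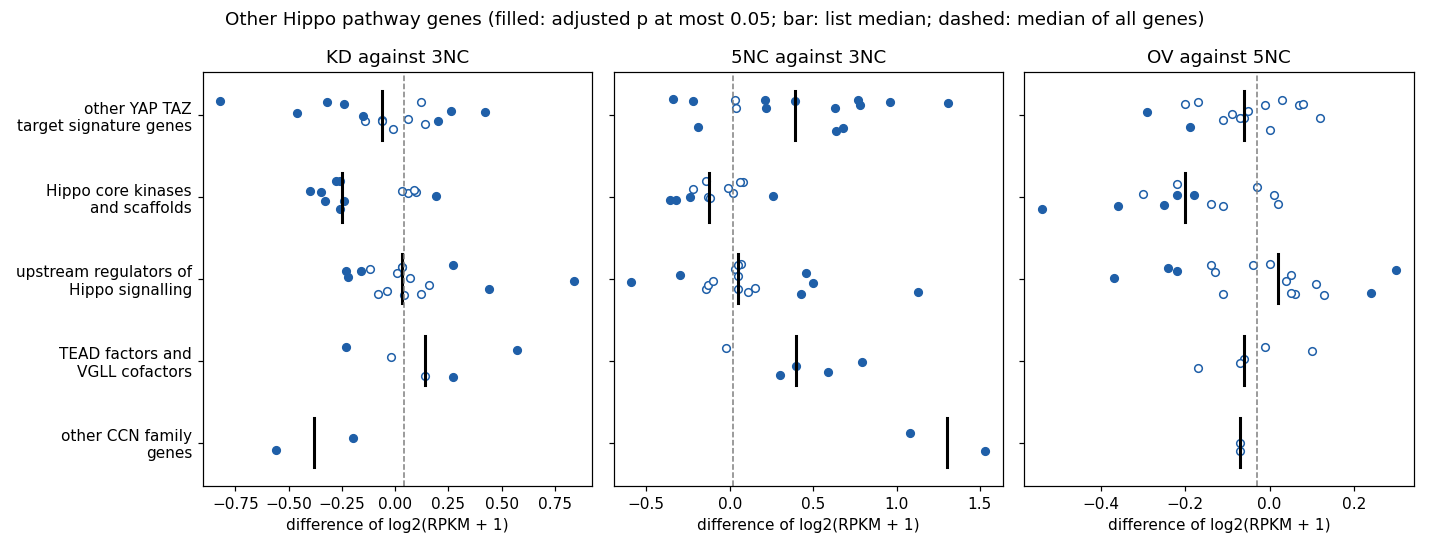
Difference of log2(RPKM + 1) (x axis, with its own range in each panel) for the tested genes of the 5 other pathway lists (y axis) in 3 comparisons. Points are genes, filled at an adjusted p of at most 0.05, black bars are list medians and the dashed line is the median of all genes. In 5NC against 3NC 10 of 15 signature genes are filled to the right (31.0% of all genes). Of the 13 other than Rbms3 and Fjx1, which passed the filter through the LV5 groups, 8 are. The bars include Rbms3 and Fjx1.

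The genes whose profile over the 12 libraries was nearest to a target were found by the Euclidean distance of centred log2(RPKM + 1) values, among the 2304 or 2305 other genes with a profile SD of at least 0.3. For Ctgf these were Jun (distance 0.15), Hnrnpd (0.22) and Hdgf (0.28). Jun, an AP-1 factor, had its lowest group mean in KD (8.87 RPKM), followed by 14.7 RPKM in 5NC, 16.6 RPKM in 3NC and 18.1 RPKM in OV. For Ankrd1 they were Ppa1 (0.28), Srrt (0.39) and Chpf2 (0.41), and for Cyr61 Nob1 (0.30), Ntmt1 (0.33) and Atic (0.37). The profile SD of Cyr61 was 0.24 and that of Ankrd1 was 0.28, so genes that vary as little as they do were left out of this search. All of the libraries are shared by these profiles, and the distances are a description without a test.

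On GRCm38 with GENCODE annotation, Ctgf lies on chromosome 10 from 24595442 to 24598683 and shares exon bases with the antisense gene Gm15270, and Yap1 lies on chromosome 9 from 7931999 to 8004596 and shares them with the antisense gene Gm20416. Whether the counting used strand is not given in the sources used here, so reads of these genes and their antisense partners cannot be told apart. Lats2 lies on chromosome 14 from 57689662 to 57758388. No other annotated gene shares exon bases with Cyr61 (chromosome 3, 145646976 to 145649981), Ankrd1 (chromosome 19, 36111961 to 36120099), Amotl1 (chromosome 9, 14541966 to 14645056), Amotl2 (chromosome 9, 102716672 to 102733418), Ajuba (chromosome 14, 54567472 to 54577558), Wwtr1 (chromosome 3, 57455649 to 57575910) or Tead1 (chromosome 7, 112679318 to 112906807).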

How the data were processed

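RNA-seq of C18-4 cells was used from 12 libraries, grouped by the sample labels. The authors deposited 1 table of RPKM values of 17576 genes. Per the study's methods, poly(A) RNA was selected on oligo(dT) beads (the labels name total RNA), sequenced on an Illumina HiSeq 2500 and mapped with SOAPaligner 2.20, and the genome build and gene set are not given in the sources used here. Read numbers were not recovered, so precision per gene is unknown, and length trends of a library remain in RPKM.

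Values were taken as log2(RPKM + 1), the 11435 genes that reached 1 RPKM in 3 or more libraries were kept, and a limma model (version 3.58.1, R 4.3.3) of the group means was fitted to the 12 libraries, with eBayes with an intensity trend, and two-sided p-values adjusted by the Benjamini-Hochberg method. Calls used an adjusted p of at most 0.05 or, stricter, of at most 0.001 with a log2 fold change of 1 or more in size. An exact permutation test of 3 against 3 libraries cannot go below 0.1. The fit was tested on simulated data. Plots were made in Python 3.11.15 (matplotlib 3.10.9).

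The members and the pathway lists were chosen with earlier results of these data known. All 10 members are named in each comparison, and in each list at most 4 called genes with the largest fold change and no overlap of libraries. Tead2 and Lats1 were named after their values were seen. Alternatives were another pseudocount (0.1), no filter, quantile normalization, median ratio scaling, a fit to the 6 libraries compared, no intensity trend, a replicate block and each library left out. A loess correction (span 0.5) over log2 transcript length was added after the data were seen.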

Additional observations from a re-analysis of the deposited data

How the results depend on the processing

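Of the counts of members called, 346 stayed within 1.5 times the reported value and 12 did not. The 346 include counts under the stricter threshold. Most of those were 0 as reported, and a count that stayed at 0 was taken as unchanged. The 4 members higher in KD against 3NC became 2 with median ratio scaling and 2 after correction for transcript length, and with single libraries left out they ranged from 2 to 5. Over all genes, the 3647 higher calls of this comparison became 3146 with median ratio scaling and 3380 after the correction (30.0% of 11271 genes). With single libraries left out they ranged from 3242 to 3918. The 4 members lower in OV against 5NC became 2 with median ratio scaling, 1 in a fit to the 6 libraries compared and 0 after correction for transcript length, and with single libraries left out they ranged from 0 to 6. The 6 members with a higher difference of effects (31.2% of all genes) became 3 after correction for transcript length (26.4% of all genes). The 3 targets lower in KD and the 2 higher in OV were called in every alternative. For single members, 915 values kept their direction and side of the threshold, 54 lost the call, 18 gained it and 3 changed sign, all of them Wwtr1 in KD against 5NC, which was not called: -0.01 with median ratio scaling, -0.04 without KD replicate 3 and -0.02 without 5NC replicate 3, with a range of -0.04 to 0.06 over the libraries left out. The cause was not tested.

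Over all genes, the 923 higher and 1595 lower calls of OV against 5NC became 939 and 950 with quantile normalization, 1305 and 1159 with median ratio scaling, 627 and 863 in a fit to the 6 libraries compared, and 1229 and 915 after correction for transcript length. With single libraries left out they ranged from 391 (without OV replicate 2) to 1672 (without OV replicate 3) higher and from 583 to 2509 lower (without the same libraries), and the shares of all genes given for this comparison move with them. Replicate numbers did not pair the libraries: of 18 pairs of libraries with the same number, 5 had deviations that correlated above 0.1 (range -0.18 to 0.35, different numbers -0.36 to 0.30). With a replicate block, 3 members were higher in OV against 5NC, Cyr61 being added (0.14, limma adjusted p = 0.0473), and 4 were lower, and the other counts of members were as reported. Without read numbers, no error from depth can be given for any value.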
